A study of Mus musculus with 12 samples.

Results

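Tear fluid is made by acinar cells of the lacrimal gland, which push chloride into the duct lumen and draw sodium and water after it. Acetylcholine from parasympathetic nerves acts on the muscarinic receptor M3, which sets off the release of stored calcium through inositol trisphosphate receptors, and the calcium opens chloride and potassium channels. A sodium, potassium and chloride cotransporter and the sodium pump keep this running from the basal side, and a water channel carries water across the luminal membrane. The 9 genes described here cover these steps: Chrm3 (the M3 receptor), Itpr2 and Itpr3 (calcium release channels), Stim1 (the calcium sensor of the store), Kcnn4 (a calcium-activated potassium channel), Ano1 (a calcium-activated chloride channel), Slc12a2 (the cotransporter NKCC1), Atp1b1 (the beta subunit of the sodium pump) and Aqp5 (the luminal water channel). They were chosen by name, and all 9 of 9 were found among the 11736 genes of the deposited gene table, with 16 of their transcripts among 21202 in the transcript table.

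RNA of whole mouse lacrimal glands was sequenced in 4 groups with 3 libraries each: glands labelled ESS, NOD glands at 12 weeks, NOD glands at 8 weeks, and control glands. The study's title names a mouse model of Sjögren's syndrome, an autoimmune disease of the tear and salivary glands, made with a lacrimal autoantigen, and its design text calls the model mice LGSS where the sample titles have ESS. NOD mice are an inbred strain that develops spontaneous autoimmunity, including of the lacrimal gland. The sources used here give no strain, age or sex for the ESS and control mice, no sex for the NOD mice and no immunization, so strain and age cannot be told apart from the group in any comparison with NOD glands. The labels do not tie libraries to separate animals, and p-values then measure only the spread between these samples. In whole tissue, fewer cells of a type and less RNA per cell cannot be told apart.

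Levels are FPKM, fragments per kilobase of exon scaled to the library, as the authors deposited them. The number of reads is not given, and between 45.8% and 55.6% of the low values of a library lay within 0.1 of a whole multiple of one step, so whole reads were not recovered and no counting error is stated. Of 11 acinar markers, 10 had values in the table, and their summed level was 5442 to 7323 FPKM in ESS, 7216 to 7442 FPKM in NOD glands at 12 weeks, 7049 to 7987 FPKM in NOD glands at 8 weeks and 3481 to 4846 FPKM in control. Most of that sum was Lcn11, a lipocalin, with 4223 to 6217 FPKM in ESS, 6124 to 6379 FPKM in NOD at 12 weeks, 5976 to 6821 FPKM in NOD at 8 weeks and 2185 to 3692 FPKM in control. Pigr, the receptor that carries antibodies into tears, went the other way at 8 weeks, with 197 to 256 FPKM in ESS, 191 to 221 FPKM in NOD at 12 weeks, 82.0 to 103 FPKM in NOD at 8 weeks and 178 to 273 FPKM in control. Of the remaining acinar markers the highest were Ltf and Bhlha15, which differed less between groups. Ltf had 466 to 561 FPKM in ESS, 418 to 467 FPKM in NOD at 12 weeks, 444 to 534 FPKM in NOD at 8 weeks and 511 to 586 FPKM in control. Bhlha15 had 282 to 300, 314 to 325, 326 to 376 and 271 to 318 FPKM in the same groups. The 10 duct cell markers summed to 779 to 842 FPKM in ESS, 681 to 780 FPKM in NOD at 12 weeks, 719 to 736 FPKM in NOD at 8 weeks and 760 to 832 FPKM in control. ESS libraries 1 and 2 stood apart from the others by salivary gland transcripts. Of 16 salivary markers, 12 had values, and their sum was 6456 to 20059 FPKM in ESS, 5582 to 5803 FPKM in NOD at 12 weeks, 5772 to 6088 FPKM in NOD at 8 weeks and 4529 to 5718 FPKM in control. Outside ESS libraries 1 and 2 most of that sum was Pip and Lpo, which were high in every library. Pip had 3368 to 4462 FPKM and Lpo 1088 to 2227 FPKM over all libraries. Bpifa2, a salivary secretory protein, had 6915, 4790 and 12.2 FPKM in ESS libraries 1, 2 and 3, and Prb1, Prol1, Prpmp5, Dcpp2 and Dcpp3 had values in ESS libraries 1 and 2 and were listed at 0 in the other 10 libraries.

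The 9 genes were expressed in every library. In control glands Aqp5 was highest at 208 ± 24.1 FPKM, followed by Atp1b1 at 18.7 ± 2.23, Ano1 at 13.2 ± 0.545, Slc12a2 at 11.5 ± 1.59, Itpr3 at 6.58 ± 0.517, Kcnn4 at 5.93 ± 1.29, Chrm3 at 5.41 ± 1.01, Stim1 at 4.37 ± 1.09 and Itpr2 at 1.21 ± 0.0517 FPKM (SD, n = 3). Neighbours in this order overlapped over the control libraries for Ano1 and Slc12a2, for Itpr3 and Kcnn4, for Kcnn4 and Chrm3, and for Chrm3 and Stim1. The order also depends on the exon length used for each gene. Set against the listed transcripts, the Stim1 gene values implied 9135 to 10314 bases, while Stim1-201 has 4085 bases and 10.9 FPKM in control. Kcnn4 gene values implied 4359 to 4834 bases, while its listed transcripts have 1990 and 1945 bases, so these can exceed the gene value. For Slc12a2 the implied length was that of its listed transcript, 6520 bases.

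**Figure D1:**
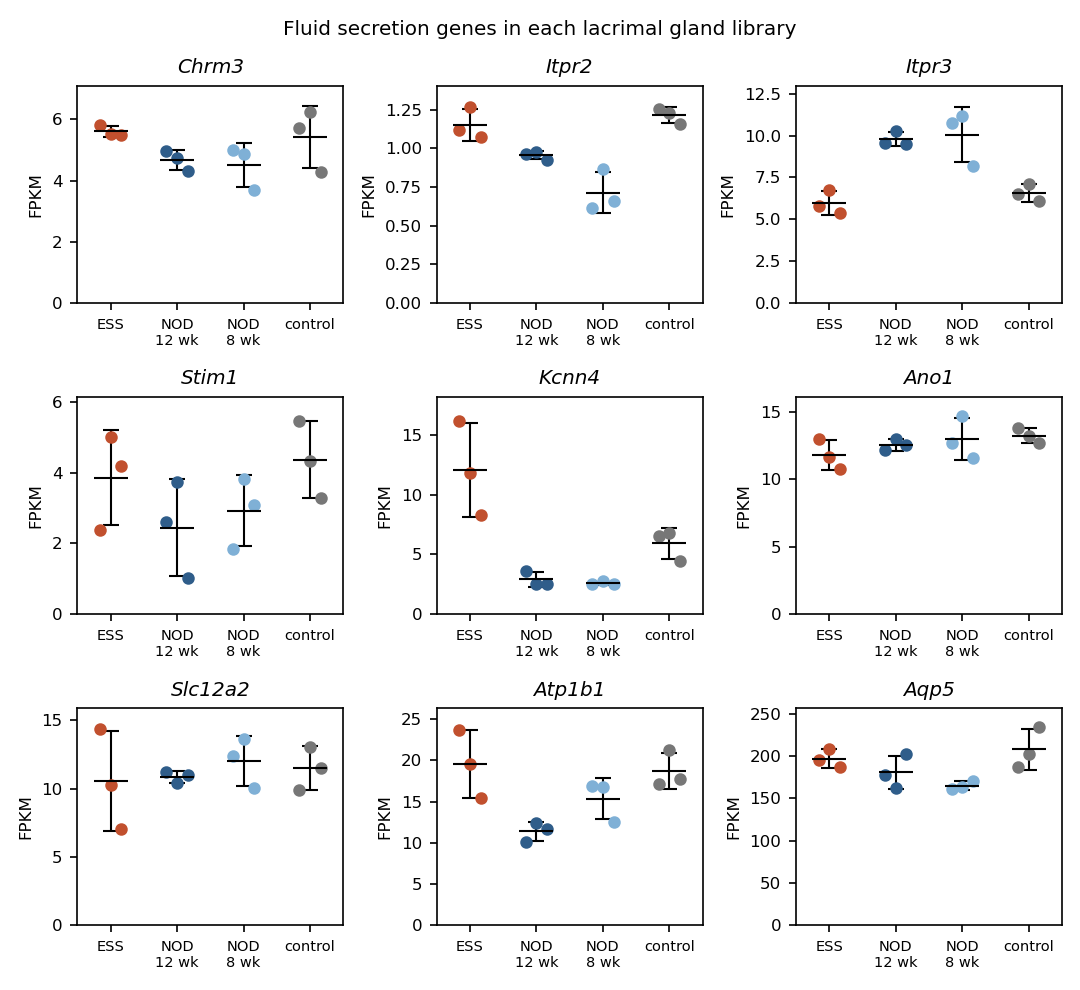
FPKM (y axis, linear, from 0) of each of the 9 fluid secretion genes in the 3 libraries of each group; points are libraries, the horizontal line is the group mean and the bar its SD. Kcnn4 in the ESS libraries lies between 8.31 and 16.1 FPKM, above all control libraries, and in the NOD libraries below all of them, while Itpr3 is higher in all 6 NOD libraries than in any other.

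Against control, 0 of the 9 genes changed in ESS glands, where 0.0678% of all 10325 tested genes were called higher and 0.0969% lower at a limma adjusted p under 0.05, and 1 of the 9 had an unadjusted p under 0.05. In NOD glands at 12 weeks 1 member rose and 2 fell, where 5.52% of all tested genes were called higher and 27.8% lower. In NOD glands at 8 weeks 1 member rose and 3 fell, against 5.30% higher and 22.1% lower over all tested genes. For 9 genes, neither NOD count stands away from those shares. Between the NOD ages, 12 against 8 weeks, 0 of the 9 changed, with 0.0775% of all tested genes higher and 0.0484% lower, and 1 of the 9 had an unadjusted p under 0.05. In ESS against NOD at 12 weeks 2 members were higher and 1 lower, with 16.2% of all tested genes higher and 4.44% lower. In ESS against NOD at 8 weeks 2 were higher and 1 lower, with 11.3% and 3.94% of all tested genes. Itpr2 is counted among the 3 that fell in NOD at 8 weeks and the 2 higher in ESS than in NOD at 8 weeks. It was tested only because of its level in ESS and control, so these calls of Itpr2 lend no support. All log2 fold changes are of FPKM + 1, which understates changes of low genes, and the comparisons with control share the 3 control libraries.

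Under the authors' scaling the median tested gene was shifted in the comparisons with NOD glands, and the cause of this shift was not tested. The median log2 fold change over all tested genes was -0.18 in NOD at 12 weeks and -0.15 in NOD at 8 weeks against control, 0.12 in ESS against NOD at 12 weeks and 0.09 in ESS against NOD at 8 weeks. The median over the 9 members was -0.18, -0.27, 0.14 and 0.27 in the same comparisons. Under quantile normalization, calls over all genes split into 1300 higher and 1347 lower in NOD at 12 weeks and 1134 higher and 1265 lower in NOD at 8 weeks, in place of 570 higher with 2874 lower and 547 higher with 2278 lower. In ESS against NOD the quantile split was 905 higher and 900 lower at 12 weeks and 821 higher and 759 lower at 8 weeks, in place of 1670 with 458 and 1163 with 407. Equal library medians split the same 4 comparisons, in this order, into 1308 higher and 1241 lower, 1266 and 1150, 931 and 831, and 794 and 766. Rescaling over genes under 2000 FPKM split them into 1174 higher and 1348 lower, 903 and 1493, 712 and 1108, and 731 and 760. For called members the change relative to the median gene is therefore given too.

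**Figure D2:**
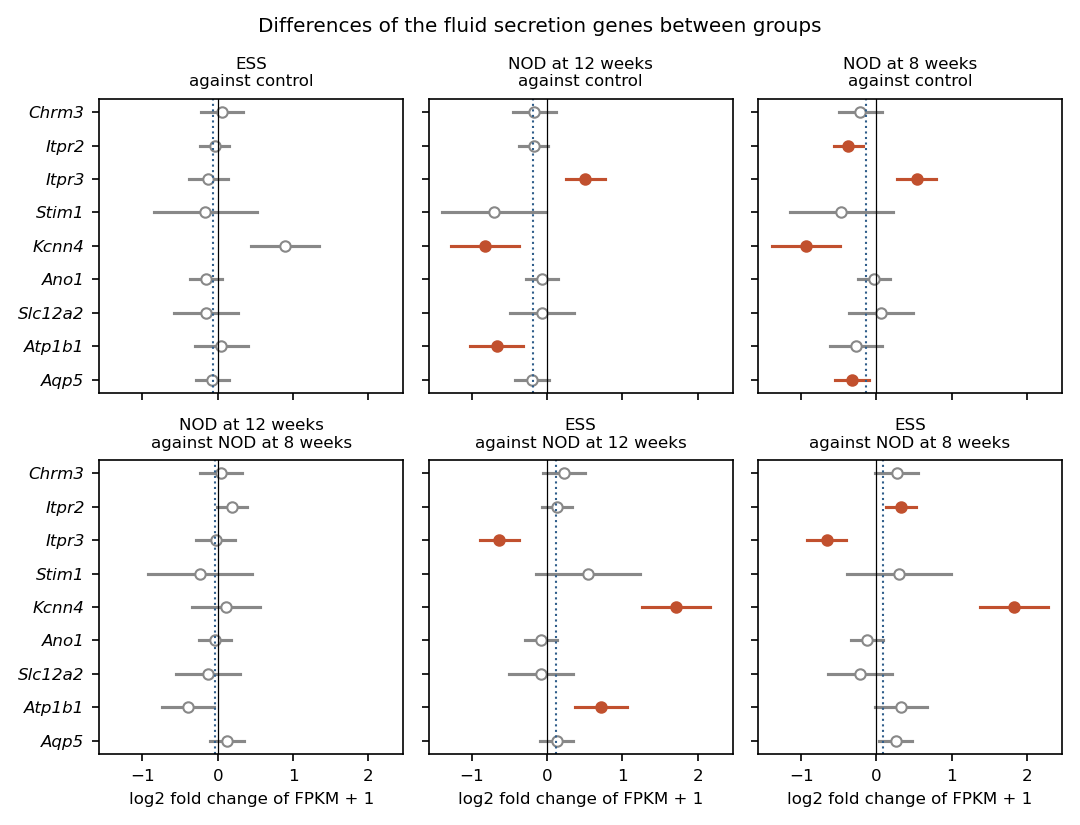
Log2 fold change of FPKM + 1 (x axis) of each gene (y axis) in the 6 comparisons, with 95% confidence intervals; filled red points passed the adjusted p of 0.05, open grey points did not, and the dotted blue line is the median of all tested genes. Kcnn4 has the largest changes of the 9 in ESS against NOD, at 1.72 and 1.83, and Itpr3 moves the other way in the NOD comparisons.

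Kcnn4 had the largest called changes of the 9 genes. It encodes KCa3.1, the intermediate-conductance potassium channel that calcium opens in secretory epithelium and that T cells also carry, and lies at 24370263 to 24386690 on the plus strand of chromosome 7. Because its transcripts are treated one by one further on, the 250 bases before the start of Kcnn4-202 on the plus strand are shown here, chr7:24370013-24370262 of GRCm38.p6, from RefSeq, with the E-box CACGTG in capitals 133 bases before that start.
Kcnn4: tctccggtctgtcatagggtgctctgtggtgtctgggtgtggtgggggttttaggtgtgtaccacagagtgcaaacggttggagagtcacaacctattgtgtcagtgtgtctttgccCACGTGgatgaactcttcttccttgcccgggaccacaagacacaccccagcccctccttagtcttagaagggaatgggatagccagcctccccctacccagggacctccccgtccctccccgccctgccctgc

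Kcnn4 had 16.1, 11.8 and 8.31 FPKM in the ESS libraries, 3.64, 2.50 and 2.54 FPKM in NOD at 12 weeks, 2.50, 2.73 and 2.50 FPKM in NOD at 8 weeks, and 6.54, 6.81 and 4.45 FPKM in control. The ESS libraries, all 3, were above each control library, and all 6 NOD libraries were below each. It fell in NOD glands by 0.83 on the log2 scale at 12 weeks (95% confidence interval -1.28 to -0.37, adjusted p = 0.0105) and by 0.94 at 8 weeks (-1.39 to -0.49, adjusted p = 0.00629), or by 0.64 and 0.79 relative to the median gene. ESS glands were higher than NOD glands by 1.72 at 12 weeks (1.26 to 2.17, adjusted p = 0.000159) and by 1.83 at 8 weeks (1.38 to 2.28, adjusted p = 0.000101), or by 1.59 and 1.74 relative to the median gene. These 4 calls held under all alternatives run for them. Against control the ESS difference was 0.89 (0.44 to 1.34) and did not pass at adjusted p = 0.11, nor under any alternative run.

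The order of Kcnn4 among the ESS libraries was that of Bpifa2, which had 6915, 4790 and 12.2 FPKM, and the part of the salivary transcripts in the Kcnn4 level was not tested. Slc12a2, Atp1b1, Ano1 and Chrm3 had the same order, so it was not particular to Kcnn4. The summed FPKM of all genes had the reverse order, with 624257, 658827 and 699332 in ESS libraries 1, 2 and 3. ESS library 3, with 12.2 FPKM of Bpifa2, had 8.31 FPKM of Kcnn4, above each control and NOD library. Without ESS libraries 1 and 2, the difference in Kcnn4 was 0.44 against control (adjusted p = 0.601), 1.27 against NOD at 12 weeks (adjusted p = 0.00952) and 1.38 against NOD at 8 weeks (adjusted p = 0.00618). Markers of immune cells, 9 of 14 with values and led by the macrophage gene Lyz2, summed to 104 to 181 FPKM in ESS, 51.0 to 82.7 FPKM in NOD at 12 weeks, 52.1 to 56.6 FPKM in NOD at 8 weeks and 72.5 to 134 FPKM in control. As for Kcnn4 the NOD libraries at 8 weeks lay below all ESS and control libraries, while ESS overlapped control and NOD at 12 weeks overlapped control. Ptprc, Laptm5 and Coro1a were lower in every NOD library than in every control library, at both ages, and in ESS overlapped control. Laptm5 had 5.29 to 7.91 FPKM in ESS, 2.19 to 4.32 FPKM in NOD at 12 weeks, 2.23 to 3.01 FPKM in NOD at 8 weeks and 5.73 to 9.16 FPKM in control. The other immune markers with values overlapped control at 8 or 12 weeks, or both. The part of immune cells in the Kcnn4 result was not tested. The T cell and B cell markers Cd3e, Cd3g, Cd8a and Ms4a1 have no value in the table. Cd4, of helper T cells, had 0.224 to 0.765 FPKM in ESS, 0.166 to 0.399 FPKM in NOD at 12 weeks, 0.106 to 0.212 FPKM in NOD at 8 weeks and 0.339 to 0.564 FPKM in control. Cd79a, of B cells, had 0.194 to 0.305 FPKM in ESS, 0.604 to 1.10 FPKM in NOD at 12 weeks, 0 to 0.492 FPKM in NOD at 8 weeks and 0 to 0.0964 FPKM in control.

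Kcnn4 has 2 listed transcripts, Kcnn4-201 and Kcnn4-202, on chromosome 7. They encode the same 1275 coding bases in 9 exons, start 36 bases apart and differ in the start of the last exon by 85 bases, which lies in the 3' untranslated region. Kcnn4-201 had 22.9, 16.99 and 2.66 FPKM in the ESS libraries, was listed at 0 in all 6 NOD libraries, and had 7.47, 0.969 and 4.67 FPKM in control. Kcnn4-202 had 16.7, 10.8 and 17.2 FPKM in ESS, 9.06, 5.60 and 6.32 FPKM in NOD at 12 weeks, 6.20, 6.62 and 5.90 FPKM in NOD at 8 weeks, and 7.95, 14.7 and 5.41 FPKM in control. So Kcnn4-202 overlapped between NOD and control libraries, and the NOD libraries held none of the listed Kcnn4-201 level.

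In the transcript fit Kcnn4-201 was called higher in ESS than in NOD at 12 weeks (adjusted p = 0.0135) and at 8 weeks (adjusted p = 0.0144). Kcnn4-201 reached 1 FPKM only in ESS and control libraries and was tested because of them, so these calls lend no support. The difference from control did not pass for NOD at 12 weeks (adjusted p = 0.0691) or 8 weeks (adjusted p = 0.0796), and no fold is given against values at 0. Kcnn4-202 passed in none of the 6 comparisons, with adjusted p = 0.0946 in ESS against NOD at 12 weeks and 0.0746 against NOD at 8 weeks. Kcnn4-201 held 58.4%, 61.6% and 13.7% of the listed Kcnn4 fragments in the ESS libraries and 49.0%, 6.31% and 46.9% in the control libraries. Reads that both transcripts share have to be divided between them by estimation, so the split is less certain than the gene value. Genetic differences between strains at the bases that tell the transcripts apart were not analysed here.

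**Figure D3:**
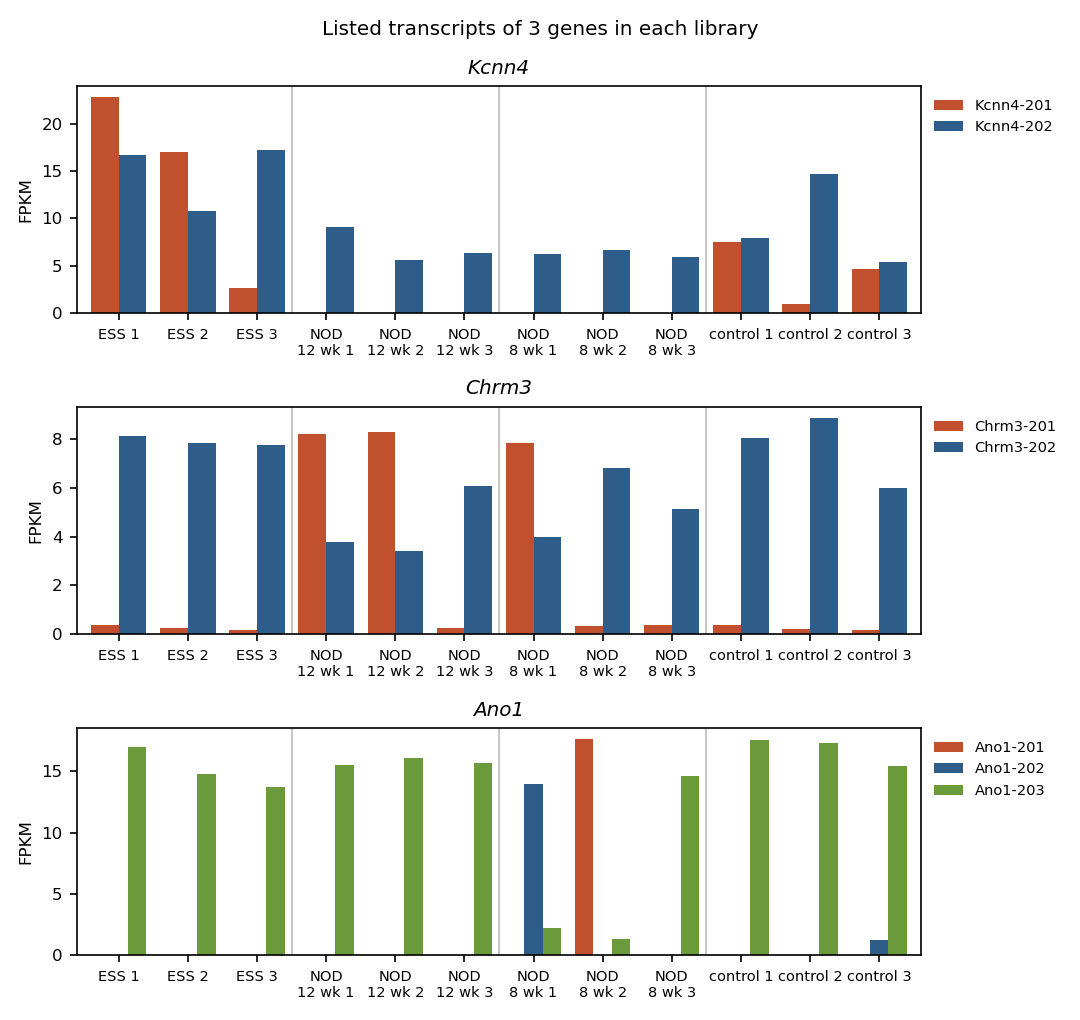
FPKM (y axis, linear, from 0) of the listed transcripts of Kcnn4, the pair of Chrm3 transcripts and the 3 long Ano1 transcripts in each of the 12 libraries; bars are single libraries, with no error. Kcnn4-201 is at 0 in all 6 NOD libraries, and Chrm3-201 reaches about 8 FPKM in 3 NOD libraries. In NOD libraries 1 and 2 at 8 weeks Ano1-203 is low and Ano1-202 or Ano1-201 is high. Reads that transcripts share are divided between them by estimation.

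Chrm3, the receptor for the main nerve signal for tear flow (GRCm38 chromosome 13, 9875486 to 10360847, minus strand), passed in no comparison. It had 5.82, 5.53 and 5.48 FPKM in ESS, 4.96, 4.72 and 4.31 FPKM in NOD at 12 weeks, 4.99, 4.86 and 3.70 FPKM in NOD at 8 weeks, and 5.70, 6.25 and 4.29 FPKM in control. Its largest difference was 0.27 in ESS against NOD at 8 weeks (95% confidence interval -0.01 to 0.55, adjusted p = 0.192). Against control it was 0.06 in ESS (-0.23 to 0.34), -0.17 in NOD at 12 weeks (-0.45 to 0.11) and -0.21 in NOD at 8 weeks (-0.50 to 0.07).

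The Chrm3 transcripts divided unevenly between libraries. Chrm3-202 spans 5 exons and 4336 bases on chromosome 13, and Chrm3-201 is a single exon of 1770 bases inside its last one, with the same 1767 coding bases. Chrm3-201 had at most 0.364 FPKM in ESS and control libraries, but 8.21, 8.29 and 0.239 FPKM in NOD at 12 weeks and 7.85, 0.326 and 0.361 FPKM in NOD at 8 weeks. Where it was high it held 44.7% to 49.7% of the listed Chrm3 fragments, and Chrm3-202 was low, at 3.77, 3.42 and 3.97 FPKM. These 3 NOD libraries came from both ages, and neither transcript passed in any comparison (adjusted p of 0.194 or more for Chrm3-201 and of 0.079 or more for Chrm3-202). Every base of Chrm3-201 is also a base of Chrm3-202, and no base is particular to the short transcript.

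In NOD glands at 8 weeks Itpr3, a calcium release channel, was called higher than in control. Itpr2, the other one, was called lower, but that call lends no support, as given below. Itpr3 encodes the type 3 inositol trisphosphate receptor, which with type 2 carries most calcium release in exocrine acinar cells. It had 5.80, 6.76 and 5.36 FPKM in ESS, 9.56, 10.3 and 9.52 FPKM in NOD at 12 weeks, 10.8, 11.2 and 8.20 FPKM in NOD at 8 weeks, and 6.50, 7.13 and 6.10 FPKM in control. Each of the 6 NOD libraries lay above each ESS and control library. It rose in NOD glands against control by 0.51 at 12 weeks (0.25 to 0.77, adjusted p = 0.00731) and by 0.54 at 8 weeks (0.28 to 0.80, adjusted p = 0.00639), or by 0.69 and 0.68 relative to the median gene. In ESS it was lower than in NOD by -0.63 at 12 weeks (adjusted p = 0.00348) and -0.66 at 8 weeks (adjusted p = 0.00284), or by -0.76 and -0.75 relative to the median gene, while ESS against control gave -0.12 (-0.38 to 0.14, adjusted p = 0.707). Its 4 calls held under all alternatives run for them.

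Itpr3 has 1 listed transcript, Itpr3-201, of 58 exons and 8990 bases at 27057304 to 27122223 on the plus strand of chromosome 17, GRCm38. Of the 16 listed member transcripts, Ano1-201 and Ano1-202 were not tested. Among the tested ones Itpr3-201 was the 1 called higher in NOD at 8 weeks against control (adjusted p = 0.0346). There, 2.18% of all 16400 tested transcripts were called higher and 6.53% lower. In NOD at 12 weeks Itpr3-201 was called higher too (adjusted p = 0.037), beside 2.52% of all transcripts higher and 8.69% lower. In ESS against NOD, called lower, it gave adjusted p = 0.0217 at 12 weeks and 0.0186 at 8 weeks, with 1.62% and 1.55% of all transcripts called lower and 4.74% and 3.61% called higher. The antisense gene Itpr3os shares 233 exon bases with Itpr3, or 2.58% of them, and the sources used here do not say whether the authors counted by strand. The nearest listed gene of the H2 complex on chromosome 17, H2-K1, lies 6.87 megabases away.

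Itpr2, the type 2 receptor (chromosome 6, 146108299 to 146502223, minus strand), was the lowest of the 9 genes. It had 1.12, 1.27 and 1.07 FPKM in ESS, 0.967, 0.977 and 0.925 FPKM in NOD at 12 weeks, 0.617, 0.868 and 0.657 FPKM in NOD at 8 weeks, and 1.26, 1.23 and 1.16 FPKM in control. The 3 NOD libraries at 8 weeks were the lowest, and those at 12 weeks lay between them and control with no overlap. It fell in NOD at 8 weeks by 0.37 (-0.57 to -0.17, adjusted p = 0.0104), or by 0.23 relative to the median gene. That call ended under quantile normalization (adjusted p = 0.129) and equal library medians (adjusted p = 0.126). In ESS it was higher than in NOD at 8 weeks by 0.33 (adjusted p = 0.0285), or by 0.24 relative to the median gene, and 11 of 17 alternatives ended this call, with adjusted p up to 0.327 without ESS libraries 1 and 2, where the difference was 0.28. Among them were ESS libraries 1, 2 and 3 left out in turn, with differences of 0.34, 0.29 and 0.36 (adjusted p = 0.0649, 0.0913 and 0.052), and NOD library 1 or 3 left out, with 0.29 and 0.31 (adjusted p = 0.0957 and 0.0635). Itpr2 reached 1 FPKM only in ESS and control libraries and was tested because of them, so its calls between NOD and these groups lend no support, although both held with no filter on low values. At 12 weeks the difference from control was -0.18 (-0.38 to 0.02, adjusted p = 0.15).

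Stim1 reports an empty calcium store to the entry channel Orai1 at the cell surface (chromosome 7, 102267806 to 102437319, plus strand). It had 2.38, 5.01 and 4.21 FPKM in ESS, 2.61, 3.73 and 1.01 FPKM in NOD at 12 weeks, 1.85, 3.84 and 3.09 FPKM in NOD at 8 weeks, and 5.47, 4.34 and 3.30 FPKM in control. The spread within each group was wide, and ESS and NOD overlapped control or one another in all comparisons. No comparison passed, and the widest difference, -0.70 in NOD at 12 weeks against control (-1.39 to -0.02), had adjusted p = 0.106. Leaving out NOD library 2 at 12 weeks moved it to -0.97 and past the threshold at adjusted p = 0.0486.

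Ano1, the chloride channel TMEM16A that forms the luminal exit for chloride (chromosome 7, 144588549 to 144751974, minus strand), passed in no comparison under the authors' scaling. It had 13.0, 11.6 and 10.8 FPKM in ESS, 12.1, 13.0 and 12.5 FPKM in NOD at 12 weeks, 12.6, 14.7 and 11.6 FPKM in NOD at 8 weeks, and 13.8, 13.2 and 12.7 FPKM in control. The 4 groups overlapped. Under rescaling over genes under 2000 FPKM alone, ESS against NOD at 12 weeks gave -0.29 in place of -0.09 and passed (adjusted p = 0.0365). The outermost bounds of the 95% intervals against control were -0.37 in ESS and 0.18 in NOD at 8 weeks.

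Its long transcripts differ in coding sequence. Ano1-203 holds a 12-base exon at chr7:144619475-144619486 on the minus strand of GRCm38, known in this channel as segment c, that Ano1-202 and Ano1-201 skip. It is shown in capitals with 24 coding bases on each side, because it is a whole exon that Ano1-203 alone of the 3 holds.
Ano1-203: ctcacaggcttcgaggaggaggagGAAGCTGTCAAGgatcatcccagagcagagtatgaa
Ano1-202 and Ano1-201: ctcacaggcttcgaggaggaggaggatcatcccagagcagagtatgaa

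Ano1-203 held 91.3% to 96.6% of the listed Ano1 fragments in 10 of the 12 libraries. In NOD library 1 at 8 weeks it held 12.9% and Ano1-202 held 81.0%, at 2.22 and 14.0 FPKM. In NOD library 2 at 8 weeks it held 6.43% and Ano1-201 held 88.7%, at 1.29 and 17.7 FPKM. The 3 long transcripts share most of their coding bases, and shared reads have to be divided between them by estimation. Here too the split is less certain than the gene value, which was 12.6 and 14.7 FPKM in these libraries. NOD library 3 at 8 weeks had 14.6 FPKM of Ano1-203, within the range of the other groups, which had 13.8 to 17.6 FPKM. Neither Ano1-201 nor Ano1-202 reached the level for testing, and Ano1-203 did not pass in NOD at 8 weeks against control (adjusted p = 0.0675). Further upstream, segments of 38 and 133 bases are coding in both others but not in Ano1-201, whose coding sequence starts after them. The first exon of Ano1-201 still holds the 133 bases. Ano1-202 alone holds 3 more coding bases beside this longer segment. The result is 2868 coding bases in Ano1-201, 3042 in Ano1-202 and 3051 in Ano1-203.

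Slc12a2, the cotransporter that loads chloride into the acinar cell (chromosome 18, 57878678 to 57946821, plus strand), overlapped between all groups. It had 14.3, 10.2 and 7.04 FPKM in ESS, 11.2, 10.4 and 11.0 FPKM in NOD at 12 weeks, 12.4, 13.7 and 10.1 FPKM in NOD at 8 weeks, and 9.89, 13.1 and 11.5 FPKM in control. The ESS libraries spread most, and their order was that of Bpifa2. Against control the differences were -0.15 in ESS (-0.58 to 0.27, adjusted p = 0.778), -0.07 in NOD at 12 weeks (-0.50 to 0.36, adjusted p = 0.807) and 0.06 in NOD at 8 weeks (-0.37 to 0.49, adjusted p = 0.853).

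Atp1b1 encodes the beta subunit, which the sodium pump needs to reach the membrane (chromosome 1, 164437109 to 164458355, minus strand). It had 23.7, 19.6 and 15.4 FPKM in ESS, 10.1, 12.4 and 11.6 FPKM in NOD at 12 weeks, 16.9, 16.7 and 12.5 FPKM in NOD at 8 weeks, and 17.1, 21.3 and 17.8 FPKM in control. All NOD libraries were below all control libraries, and those at 12 weeks were the lowest. It fell in NOD at 12 weeks by 0.67 (-1.02 to -0.32, adjusted p = 0.00801), or by 0.49 relative to the median gene, under all 17 alternatives. At 8 weeks the difference was -0.27 (-0.62 to 0.07, adjusted p = 0.227), and 12 against 8 weeks gave -0.40 (-0.74 to -0.05) with an unadjusted p of 0.0292 and adjusted p = 0.489.

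In ESS glands Atp1b1 was higher than in NOD at 12 weeks by 0.72 (0.37 to 1.07, adjusted p = 0.0086), or by 0.59 relative to the median gene. Among the ESS libraries its order was again that of Bpifa2, and without ESS libraries 1 and 2 the difference was 0.41 at adjusted p = 0.264. Its transcript Atp1b1-201 was called alongside the gene, lower in NOD at 12 weeks than in control (adjusted p = 0.0317) and higher in ESS than in NOD at 12 weeks (adjusted p = 0.0343). Nme7, on the opposite strand, shares 575 exon bases or 18.7% with Atp1b1, and had 0.893 to 1.04 FPKM in ESS, 0.872 to 1.07 FPKM in NOD at 12 weeks, 0.767 to 0.88 FPKM in NOD at 8 weeks and 0.54 to 0.937 FPKM in control.

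Aqp5, the water channel of the luminal membrane (chromosome 15, 99590849 to 99594829, plus strand), had 195, 209 and 187 FPKM in ESS, 178, 162 and 202 FPKM in NOD at 12 weeks, 161, 163 and 171 FPKM in NOD at 8 weeks, and 187, 203 and 234 FPKM in control. The NOD libraries at 8 weeks lay below all control and ESS libraries, and those at 12 weeks overlapped both. It fell in NOD at 8 weeks by 0.33 (-0.55 to -0.10, adjusted p = 0.0333), or by 0.18 relative to the median gene. That call ended under 9 of 17 alternatives, among them all 3 other scalings, with adjusted p of 0.159, 0.401 and 0.242. It also ended without any 1 of the NOD libraries 1, 2 and 3 (adjusted p = 0.0881, 0.0779 and 0.0509) and without control library 2 or 3 (adjusted p = 0.0599 and 0.113). In ESS the difference from control was -0.07 (-0.29 to 0.15, adjusted p = 0.805), and in NOD at 12 weeks -0.20 (-0.42 to 0.02, adjusted p = 0.149). Nearly all of it was Aqp5-202, at 172 to 252 FPKM over the 12 libraries, with Aqp5-201 at 0 to 9.05 FPKM. As transcripts, neither passed in any comparison, with adjusted p = 0.0877 for Aqp5-202 in NOD at 8 weeks against control.

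Other genes of the same pathway were taken from a list of 135 symbols, of which 91 were in the table and 75 were tested. Against control, 0 rose and 0 fell in ESS glands, with 11 at an unadjusted p under 0.05 by limma. In NOD glands 4 rose and 21 fell at 12 weeks, and 4 rose and 18 fell at 8 weeks, with 50 and 53 not passing. Of all tested genes 5.52% rose and 27.8% fell at 12 weeks, and 5.30% rose and 22.1% fell at 8 weeks. The counts include Slc12a1, which reached 1 FPKM only in NOD libraries, and Slc12a8 and Cldn2, which reached it only in ESS and control libraries; such genes were tested only because of the group where they are high. Their median log2 fold changes were -0.13 and -0.11, beside -0.18 and -0.15 over all tested genes. These counts depend on the scaling: quantile normalization gave 15 higher and 13 lower at 12 weeks and 12 higher and 12 lower at 8 weeks, equal medians 13 with 11 and 15 with 12, and rescaling 10 with 12 and 11 with 15. At 12 against 8 weeks 0 changed, with 7 at an unadjusted p under 0.05.

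Of 6 other tested genes of the sodium pump, 3 fell and 0 rose at each NOD age under the authors' scaling, among them Fxyd3, a small regulator of the pump, and the beta subunit Atp1b3. Over all tested genes 27.8% fell at 12 weeks and 22.1% at 8 weeks, and 3 of 6 is too few genes to read against those shares. Fxyd3 had 35.5, 22.1 and 30.8 FPKM in ESS, 5.90, 4.97 and 5.17 FPKM in NOD at 12 weeks, 7.07, 5.82 and 5.62 FPKM in NOD at 8 weeks, and 34.6, 34.7 and 42.6 FPKM in control. The NOD libraries did not overlap the others, and the fall was by 2.59 at 12 weeks (adjusted p = 4.7e-07) and by 2.42 at 8 weeks (adjusted p = 9.3e-07). Lgi4 on the opposite strand shares 42.5% of the Fxyd3 exon bases, at 0.14 to 0.624 FPKM over all libraries.

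Of 2 tested water channels other than Aqp5, both rose at 8 weeks and 1 at 12 weeks, where 5.30% and 5.52% of all tested genes rose. Aqp8, which passes water and ammonia, had 88.5, 97.9 and 96.2 FPKM in ESS, 164, 145 and 138 FPKM in NOD at 12 weeks, 145, 161 and 146 FPKM in NOD at 8 weeks, and 73.9, 67.6 and 73.4 FPKM in control. It rose by 1.04 in NOD at 12 weeks (adjusted p = 5.6e-06) and by 1.06 at 8 weeks (adjusted p = 4.9e-06), under all 17 alternatives. Aqp1, the channel of endothelium, rose in NOD at 8 weeks by 0.74 (adjusted p = 0.0257), but not when NOD library 1 (adjusted p = 0.093), NOD library 2 (adjusted p = 0.0789) or control library 3 (adjusted p = 0.0908) was left out. Endothelial markers, 8 of 8 with values, summed to 15.0 to 21.0 FPKM in ESS, 16.7 to 19.0 FPKM in NOD at 12 weeks, 18.8 to 23.7 FPKM in NOD at 8 weeks and 16.8 to 23.7 FPKM in control.

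**Figure D4:**
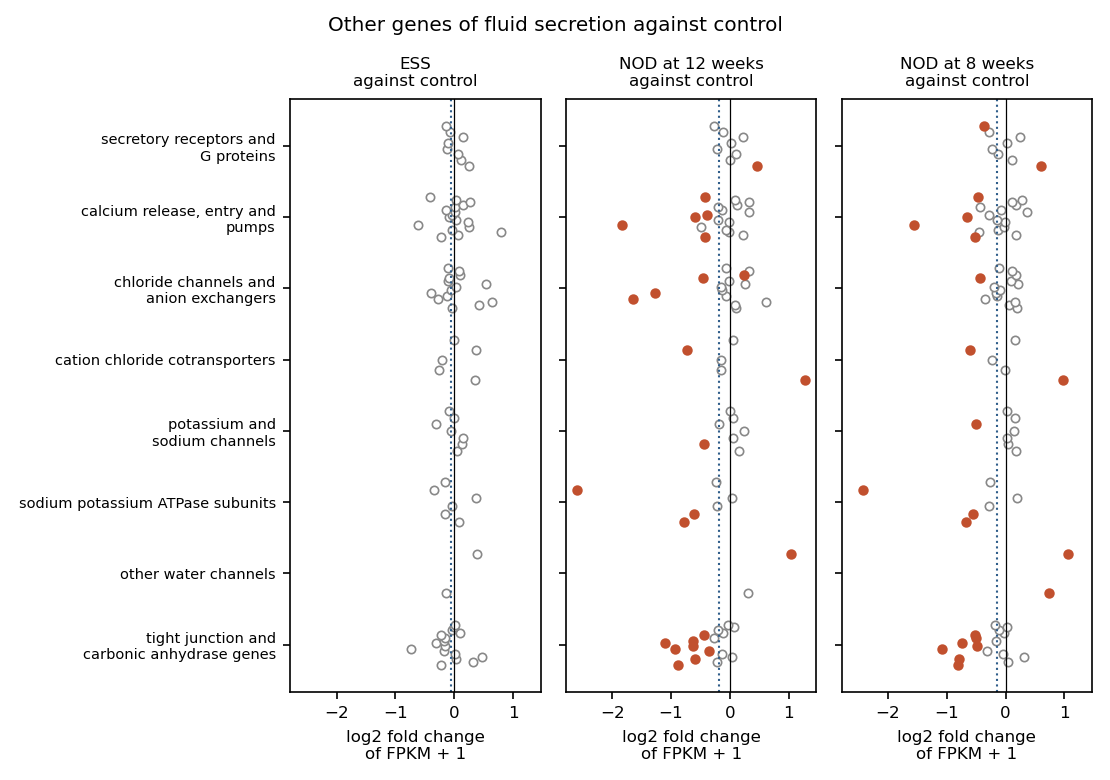
Log2 fold change of FPKM + 1 (x axis) of the 75 tested genes of the pathway list, in rows by function, against control; each point is a gene, filled red where the adjusted p was under 0.05, and the dotted blue line is the median of all tested genes. In both NOD ages Fxyd3 lies farthest left, at -2.59 and -2.42, and Aqp8 and Slc12a1 lie on the right (Slc12a1 was tested only because of its level in NOD), while no point is filled in ESS.

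Among cotransporters, Slc12a1, the kidney cotransporter NKCC2, had 0.363, 0.666 and 0.596 FPKM in ESS, 1.72, 1.93 and 2.05 FPKM in NOD at 12 weeks, 1.70, 1.77 and 0.772 FPKM in NOD at 8 weeks and 0.408, 0.047 and 0.164 FPKM in control. All 6 NOD libraries lay above all ESS and control libraries. Since it reached 1 FPKM only in NOD libraries and so passed the filter through them, no fold or test is given. The receptor Adra1a, through which noradrenaline also raises calcium, rose by 0.46 at 12 weeks (adjusted p = 0.0465) and by 0.59 at 8 weeks (adjusted p = 0.0175). The first of these ended under 7 of 16 alternatives, among them without NOD library 1 or 2 (adjusted p of 0.139 for both) or control library 2 or 3 (0.135 and 0.101). The second ended without NOD library 1 or 2 (0.0557 and 0.0673) or control library 2 (0.0594). Slc9a3r1, a scaffold of apical transporters, rose by 0.24 at 12 weeks (adjusted p = 0.0412), which ended under 7 of 17 alternatives, among them without NOD library 1, 2 or 3 (0.118, 0.0747 and 0.0727) or control library 2 or 3 (0.0859 and 0.119).

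Of 17 tested genes of calcium release, entry and pumps, 0 rose at either NOD age, 5 fell at 12 weeks and 4 at 8 weeks, near the 27.8% and 22.1% of all tested genes that fell. Calm2, which encodes calmodulin, the calcium sensor bound to the Kcnn4 channel, had 73.7, 70.6 and 70.8 FPKM in ESS, 34.9, 27.0 and 29.7 FPKM in NOD at 12 weeks, 42.5, 36.6 and 32.9 FPKM in NOD at 8 weeks, and 124, 94.0 and 116 FPKM in control. It fell by 1.83 (adjusted p = 1.5e-06) and by 1.55 (adjusted p = 5.5e-06) in NOD. Up to 37.1% of its longest transcript matched another gene's transcript at 95% identity or more, so reads may have been shared. Of 16 tested tight junction and carbonic anhydrase genes, 8 fell at 12 weeks and 7 at 8 weeks, where 27.8% and 22.1% of all tested genes fell. Car12, a carbonic anhydrase of the cell surface, had 7.47, 6.00 and 6.18 FPKM in ESS, 3.84, 3.75 and 3.72 FPKM in NOD at 12 weeks, 4.16, 4.11 and 3.70 FPKM in NOD at 8 weeks, and 7.60, 7.78 and 7.92 FPKM in control, and fell by 0.88 and 0.81. Car2, the cytosolic enzyme, fell by 0.79 at 8 weeks (adjusted p = 0.000994), and Cldn7, a tight junction claudin, fell by 0.63 at 12 weeks (adjusted p = 0.000528). Cldn7 had 10.0, 10.3 and 10.8 FPKM in NOD at 12 weeks, 15.0, 13.7 and 15.8 FPKM in NOD at 8 weeks, and 16.3, 18.1 and 15.7 FPKM in control. At 8 weeks it overlapped control and did not pass, with a difference of -0.16 (adjusted p = 0.246).

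In ESS against NOD, 16 genes of the list were higher and 2 lower at 12 weeks, and 9 were higher and 3 lower at 8 weeks. Over all tested genes 16.2% were higher and 4.44% lower at 12 weeks, and 11.3% higher and 3.94% lower at 8 weeks. The higher genes with the smallest adjusted p were Fxyd3, Calm2 and Car12 at both ages, with differences of 2.24, 1.21 and 0.66 at 12 weeks and 2.07, 0.93 and 0.59 at 8 weeks. Aqp8 was lower in ESS at both ages, by -0.65 and -0.67. Slc12a1 is counted among the lower genes at both ages, again through its level in NOD. Any call of Slc12a8 or Cldn2 among the higher genes would likewise rest on their level in ESS and control. Aqp1 was lower in ESS than in NOD at 8 weeks by -0.89 (adjusted p = 0.0166), which ended without ESS library 2 (0.0632) or NOD library 1 or 2 (0.0689 and 0.06). Quantile normalization gave 10 higher and 7 lower at 12 weeks and 7 of each at 8 weeks, equal medians 8 with 6 and 7 with 6, and rescaling 8 with 9 and 7 with 6. Without ESS libraries 1 and 2 the calls were 6 higher and 1 lower at 12 weeks and 5 higher and 1 lower at 8 weeks.

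Across the 12 libraries, 5065 tested genes averaging 5 FPKM or more were ranked by how closely their log2 values followed each member. Kcnn4 was followed most closely by Vcp, a protein-unfolding ATPase, and Slc48a1, a heme transporter (Pearson r of 0.94 for both), both lower in all NOD libraries than in all others. Itpr3 was followed by Dym and by the kinesin Kif1b (r of 0.97 for both), and Atp1b1 by Taf8 and Coq9 (0.96 for both). Chrm3 was followed closely by the peptidase Tpp2 (0.96), and Itpr2 by Slc25a17 (0.96) and B4galt1 (0.94). For Aqp5 the nearest were mt-Nd1 (0.90) and Hsbp1 (0.86), for Ano1 Rxra (0.90) and Ntn1 (0.89), for Slc12a2 Grhl1 (0.87) and Ntan1 (0.86), and for Stim1 Aatf (0.88) and Dkc1 (0.83). These values describe libraries that share groups and scaling, and a high r is found for some gene when so many are searched.

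Promoter windows of 250 bases before to 50 bases after the start were present for 8 of the 9 genes, Slc12a2 being the exception, and were searched on both strands. The E-box CACGTG was found in those of Aqp5, Kcnn4 and Itpr3, and in 7.15% of 32851 promoters. The GC box GGGCGG was found in 7 of the 8 and in 35.7% of all promoters, and the CCAAT box CCAAT in Itpr2 and Atp1b1 and in 37.4% of all. The TATA box TATAAA and the AP-1 site TGANTCA were found in 0 of the 8, with 13.6% and 7.81% of all promoters.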

How the data were processed

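Stranded libraries were made from total RNA, per the labels' protocols, and reads were placed on GRCm38, per the submitters' processing notes. No aligner, counter or annotation release is named in the sources used here. Values are FPKM, deposited by the authors per gene and per transcript, per the file headers, and no counts were used. Groups were taken from the sample titles. Features reaching 1 FPKM in 3 or more of the 12 libraries were fitted as log2(FPKM + 1) with a mean per group in limma 3.58.1 (R 4.3.3), with moderated statistics and a trend, and Benjamini-Hochberg adjusted over all tested genes, or over all tested transcripts. The procedure was tested on simulated data. Structures came from GENCODE M21, promoters from RefSeq (GRCm38.p6), and copies were searched with blastn 2.17.0 (at least 95% identity over at least 50% of the longest transcript, found for none of the named genes). Named were all 9 members and their transcripts with a group mean of 1 FPKM or more, the 4 called pathway genes with the smallest adjusted p in each direction and comparison, and the 2 genes nearest to each member in pattern, except a few items that are not reported here. The members, lists and rules were chosen with earlier results of these data known. Atp1b3 and the overlapping genes were named after their values were seen. Alternatives changed the pseudocount (0.1 or 5), the filter (none, or 5 FPKM), the scaling (quantile, equal medians, or the sum over genes under 2000 FPKM), the prior, the groups fitted (only those compared, or with replicate numbers as a block), the gene value (summed transcripts) and the libraries (1 left out, or both salivary ones). For the named pathway genes they were chosen after seeing the data.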

Additional observations from a re-analysis of the deposited data

Results flagged for a closer look

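For 4 members ESS and NOD glands were called different in the direct comparison of the groups, tested with limma and adjusted over all genes. Kcnn4 was higher in ESS by 1.72 than in NOD at 12 weeks and by 1.83 than in NOD at 8 weeks. Itpr3 was lower in ESS, by -0.63 against NOD at 12 weeks and -0.66 against NOD at 8 weeks. Atp1b1 differed by 0.72 against NOD at 12 weeks, and by 0.41 without both salivary ESS libraries. Itpr2 differed by 0.33 against NOD at 8 weeks, but 11 of 17 alternatives ended that call. Itpr2 was tested only because of its level in ESS and control, so its call lends no support. With 3 libraries a group, single far-off libraries were not tested for.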

How the results depend on the processing

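The calls of Kcnn4 and Itpr3 in the 4 comparisons with NOD and of Atp1b1 in NOD at 12 weeks against control held under all alternatives run for them, and the calls that did not are given with their genes above. Changes of sign concerned differences that had not passed, and Stim1 and Ano1 each passed under 1 alternative. Depth is unknown, and the 3 libraries a group limit the precision. Itpr2 and Stim1 had no value under a filter at 5 FPKM, where they were not tested. The cause of each shift below was not tested.

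In ESS against control the count of genes called, 17 in the report, was 11 with a pseudocount of 0.1, 35 with no filter, 9 with a filter at 5 FPKM, 27 with quantile normalization, 34 rescaled, 2 from summed transcripts, 4 with the compared groups alone, and 1 to 53 without single libraries (1 without ESS library 2, 3 without control library 3, 8 without ESS library 1, 53 without control library 2). In NOD at 12 against 8 weeks, 13 in the report, it was 8 with the filter at 5 FPKM, 24 with quantile normalization, 27 rescaled, 5 from summed transcripts, 32 with the groups alone, and 4 to 12 without single libraries (4 and 7 without NOD library 2 or 3 at 12 weeks, 8 without NOD library 2 at 8 weeks). The filter at 5 FPKM, which tests fewer genes, gave 1681 genes in NOD at 8 weeks and 2168 at 12 weeks against control and 1025 in ESS against NOD at 8 weeks, with 12 and 15 pathway genes in the first 2. Without both salivary ESS libraries 549 and 588 genes were called against NOD at 8 and 12 weeks, with 6 and 7 pathway genes. Without single libraries ESS against NOD at 12 weeks gave 1256 to 1900 genes (1256 and 1324 without NOD library 2 or 3 at 12 weeks) and 11 to 18 pathway genes, 11 of them without ESS library 1 or NOD library 3. Pathway calls ran from 0 to 3 in ESS against control, 3 without control library 2, and from 0 to 1 in NOD at 12 against 8 weeks. Members called in NOD at 8 weeks, 4 in the report, were 2 with quantile normalization and 2 with equal medians, and member transcripts called there, 1 in the report, were 2 with a pseudocount of 0.1.

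Quantile normalization turned Itpr2 in ESS against control to 0.022, Ano1 in NOD at 8 weeks to 0.12, Aqp5, Slc12a2, Ano1 and Chrm3 in NOD at 12 weeks to 0.052, 0.13, 0.13 and 0.015, Ano1 and Itpr3 at 12 against 8 weeks to 0.011 and 0.020, and Aqp5 in ESS against NOD at 12 weeks to -0.13. Equal medians gave Itpr2 0.029 in ESS against control, Ano1 0.14 in NOD at 8 weeks, and Slc12a2, Ano1, Itpr2 and Chrm3 0.12, 0.12, 0.0098 and 0.020 in NOD at 12 weeks. Rescaling gave Ano1 0.094 in NOD at 8 weeks, Aqp5, Slc12a2, Ano1 and Chrm3 0.010, 0.13, 0.13 and 0.0086 in NOD at 12 weeks, Ano1 and Itpr3 0.035 and 0.047 at 12 against 8 weeks, and Aqp5 -0.089 in ESS against NOD at 12 weeks. Summed transcripts gave Ano1 0.10 in NOD at 8 weeks, Ano1 and Chrm3 0.11 and 0.28 in NOD at 12 weeks, Ano1 0.014 at 12 against 8 weeks, and Chrm3 -0.22 in ESS against NOD at 12 weeks. Without both salivary ESS libraries Atp1b1 was -0.26 in ESS against control.

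Without single libraries, uncalled differences crossed 0 over these ranges. In ESS against control, Atp1b1 ran from -0.094 to 0.20, Stim1 from -0.34 to 0.079, Slc12a2 from -0.38 to 0.081, Aqp5 from -0.15 to 0.016 and Chrm3 from -0.076 to 0.15. In NOD at 8 weeks, Slc12a2 ran from -0.035 to 0.17 and Ano1 from -0.12 to 0.043, and in NOD at 12 weeks Slc12a2 ran from -0.16 to 0.020. At 12 against 8 weeks, Itpr3 ran from -0.15 to 0.050, Ano1 from -0.11 to 0.047, Chrm3 from -0.067 to 0.11, Kcnn4 from -0.021 to 0.18 and Stim1 from -0.51 to 0.11. In ESS, Slc12a2 ran from -0.44 to 0.021 against NOD at 8 weeks and from -0.31 to 0.15 against NOD at 12 weeks.

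Libraries with the same number in their titles did not deviate together, with correlations of their deviations between -0.101 and 0.196. With the number as a block, ESS against control gave 27 genes and 1 pathway gene, and no call of a member changed.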
